A study of Mus musculus with 10 samples.

Results

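The comparison described here sets microglia of Trem2 knockout mice against microglia of heterozygous mice, which keep 1 intact copy of the gene, so that it measures what changes when the last copy is lost. Trem2 encodes a receptor on the surface of microglia, the resident macrophages of the brain. All 6 libraries of these 2 genotypes were used, of 10 in the series: heterozygous (TREM2+/-) libraries 5, 8 and 11 and knockout (TREM2-/-) libraries 6, 9 and 12. Genes were kept where at least 3 of the 6 libraries reached 0.5 RPKM (reads per kilobase of gene, scaled to library depth), which left 13136 of the 19983 genes seen in any of the 10 libraries. The mice were C57BL/6 animals of 3 to 5 months, microglia were taken with magnetic beads against CD11b, a surface protein of myeloid cells, and total RNA was sequenced after whole-transcript amplification with the Ovation v2 kit. Heterozygous libraries 5 and 11 are from females and 8 from a male, whereas knockout library 6 is from a female and 9 and 12 from males. The 4 wild-type (TREM2+/+) libraries 1, 4, 7 and 10 entered the fit and add to its estimates of the spread and of the sex effect. Through the sex effect they can also shift the differences between knockout and heterozygous libraries. For some genes their levels are given for reference. The labels do not say which part of Trem2 the allele removes, and give no count of mice per library. The p-values therefore cover library-to-library spread, which may be partly technical.

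As background, TREM2 binds lipids, lipoproteins and other anionic ligands and has no signalling tail of its own. It pairs with the adaptor DAP12, encoded by Tyrobp, whose phosphorylated motif recruits the kinase SYK and, through it, phospholipase C gamma and phosphoinositide 3-kinase. In brains with amyloid or myelin damage the receptor is needed for microglia to leave the homeostatic state and take up the disease-associated programme of lipid-metabolism and lysosomal genes, and loss of both human copies causes a bone and brain disease. The labels of these mice name no such lesion.

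Trem2 was the 1 gene that passed the adjusted test in the planned fit, and it fell. No gene passed that test in the higher direction, although Camp, a neutrophil granule gene, did so when depth was added as a covariate. The Trem2 promoter is shown because its RNA was the sole difference that passed the test, together with the promoter of B430306N03Rik, a neighbouring receptor-like gene whose knockout and heterozygous values did not overlap. Both sequences are the 250 bases before the RefSeq transcript start on the plus strand, from RefSeq for GRCm38.p6. For B430306N03Rik that start lies inside the span GENCODE gives the gene, so the end of its window, with the match nearest the start, falls within that span. Capitals mark the letters GAGGAA, or TTCCTC where they lie on the other strand, the core bound by PU.1, a master transcription factor of myeloid cells.
Trem2, chr17:48346151-48346400: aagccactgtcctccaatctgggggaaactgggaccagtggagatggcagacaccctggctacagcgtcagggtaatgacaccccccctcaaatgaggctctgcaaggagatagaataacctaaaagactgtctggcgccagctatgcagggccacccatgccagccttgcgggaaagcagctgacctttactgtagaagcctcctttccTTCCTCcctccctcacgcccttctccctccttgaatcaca
B430306N03Rik, chr17:48315912-48316161: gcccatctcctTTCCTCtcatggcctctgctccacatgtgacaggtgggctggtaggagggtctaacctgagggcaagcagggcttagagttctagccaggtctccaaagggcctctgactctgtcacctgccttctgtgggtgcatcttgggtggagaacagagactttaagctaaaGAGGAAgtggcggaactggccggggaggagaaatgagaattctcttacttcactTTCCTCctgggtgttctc
The Trem2 window held 1 match, on the reverse strand, and the B430306N03Rik window held 1 on the forward and 2 on the reverse strand. Of 32851 RefSeq promoter windows of this length, 23.3% held at least 1, so a match is a description of the letters and not of binding.

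The libraries differed in depth. Whole reads could be recovered from the deposited values, and gave 17204542 to 39269382 reads per library over the 6, with heterozygous library 11 and knockout libraries 9 and 12 among the deeper ones and heterozygous 5 and 8 and knockout 6 among the shallower ones. Between 11518 and 11890 genes reached 1 RPKM in each. All 28 homeostatic microglial genes on the list passed the filter, with P2ry12, the purinergic receptor that marks resting microglia, between 1599 and 2274 RPKM, so the labelled cell type was borne out by its markers. Knockout library 6 stood apart on the high side. It was more than 1 log2 unit above all 5 other libraries in 55 genes, against 6 to 15 genes for each of the others. On the low side it did not: it lay that far below all others in 29 genes, against 30 for heterozygous library 8. The summed level of the 16 neutrophil markers found in the files was 481, 475 and 274 RPKM in heterozygous libraries 5, 8 and 11 and 2435, 522 and 554 RPKM in knockout libraries 6, 9 and 12. The groups did not overlap (log2 difference 1.16, exact permutation p = 0.1, two-sided, the smallest that 3 against 3 allows; adjusted p = 0.85 over 17 cell-type lists), and the difference was 0.44 without library 6. The summed markers of choroid plexus and ependyma went the other way, at 1348, 2126 and 1741 against 1275, 1327 and 1186 RPKM (log2 difference -0.44, exact permutation p = 0.1, adjusted p = 0.85). In bulk RNA, fewer cells of a type and less RNA per cell cannot be told apart. Gene lists and genes that lean on library 6 are given with and without it. Library 6 is also the only female and the only shallower knockout library. Shifts on leaving it out therefore cannot be told apart from those of sex or depth. Values among deeper, shallower, female or male libraries are differences of means outside the fit, with no term for sex. The deeper class sets heterozygous library 11, a female, against knockout libraries 9 and 12, both males. In the shallower class library 6 is the only knockout library. Differences between depth classes therefore cannot be told apart from those of sex or of library 6.

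Trem2 itself (ENSMUSG00000023992.14, chr17:48346401-48354147, plus strand, GRCm38) was measured at 105, 85.2 and 91.7 RPKM in heterozygous libraries 5, 8 and 11 and at 28.3, 21.4 and 23.9 RPKM in knockout libraries 6, 9 and 12. The highest knockout library lay well below the lowest heterozygous one. The means were 93.9 ± 9.98 RPKM (SD, n = 3) and 24.5 ± 3.52 RPKM (SD, n = 3), so knockout microglia held 26.1% of the heterozygous level. The log2 difference was -1.91 with a standard error of 0.15 and a 95% interval of -2.25 to -1.57 (limma, Benjamini-Hochberg adjusted p = 0.00122). An exact permutation test of the 3 against 3 values gave its smallest possible p of 0.1. The remaining signal was not at the limit of counting: it rested on 627, 934 and 1103 recovered reads in the knockout libraries, against 2221, 1722 and 3904 in the heterozygous ones. Where along the gene these reads lie was not analysed here. The wild-type libraries ranged from 170 to 237 RPKM. Trem2 is 1 of 13136 genes tested, so the share called lower was 0.00761% and the share called higher 0%.

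**Figure D1:**
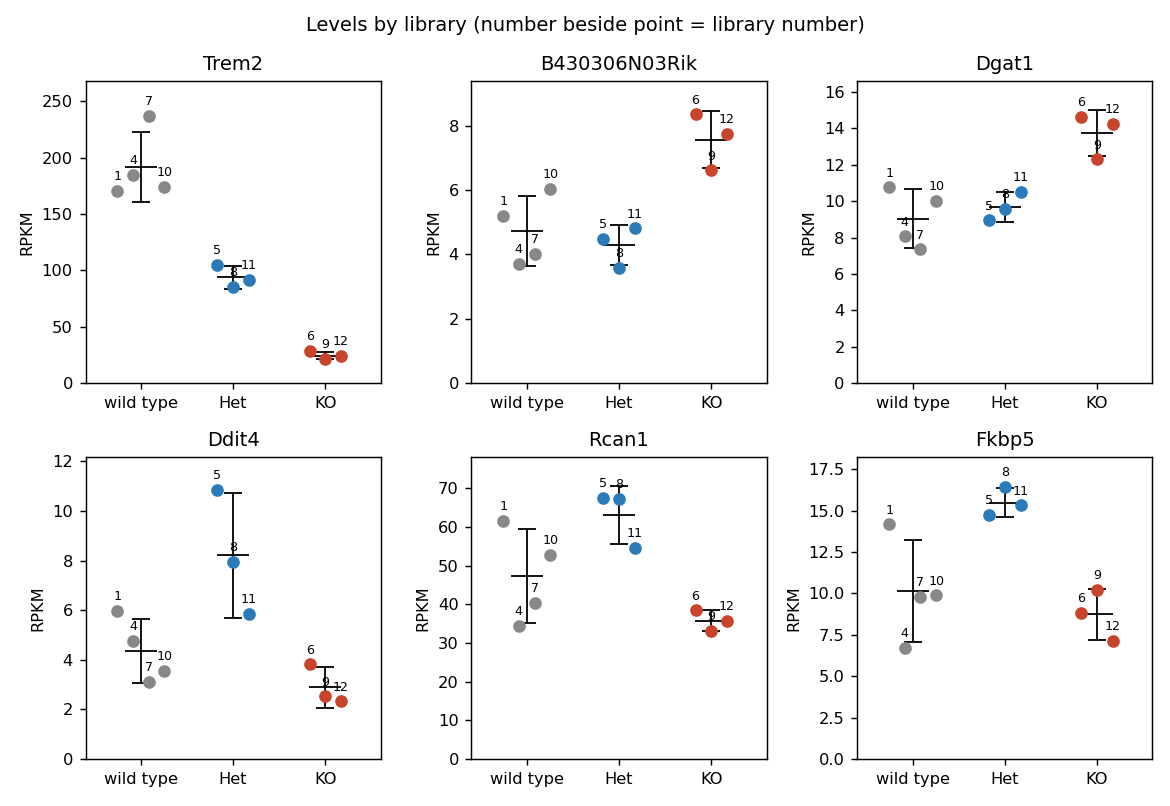
Levels in RPKM (linear axes) of Trem2, B430306N03Rik, Dgat1, Ddit4, Rcan1 and Fkbp5 in each wild-type, heterozygous and knockout library, with points labelled by library number and bars for mean ± SD (n = 4, 3 and 3). Knockout and heterozygous points do not overlap in any of the 6 panels, and Trem2 is the sole gene of the 6 that passed the adjusted test.

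Beyond Trem2, the distribution of differences gave few small p-values. By limma, 284 genes (2.16%) had an unadjusted p under 0.05 with a higher level in knockout and 151 (1.15%) with a lower level, together 435 genes or 3.31%, where uniform p-values would give 5% or 657 genes. After Trem2 the smallest adjusted p was 0.79. Limma-voom on the recovered reads likewise called Trem2 alone and had 381 genes at an unadjusted p under 0.05. Knockout values lay above heterozygous values in every library for 577 genes (4.39%) and below for 386 genes (2.94%), 963 genes or 7.33% in all. Fold changes were positive for 57.2% of genes, with a median of 0.03 on the log2 scale, all fold changes being on log2(RPKM + 0.5), which understates those of low genes. The median standard error was 0.20, and for 88.1% of genes the 95% interval of the difference lay inside 1 log2 unit in either direction. A difference of 1 log2 unit or more was estimated for 110 genes, 77 higher and 33 lower, and 70 of these were among the 395 tested microRNA and small nucleolar RNA genes, whose median standard error was 0.52 against 0.19 for the other genes.

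**Figure D2:**
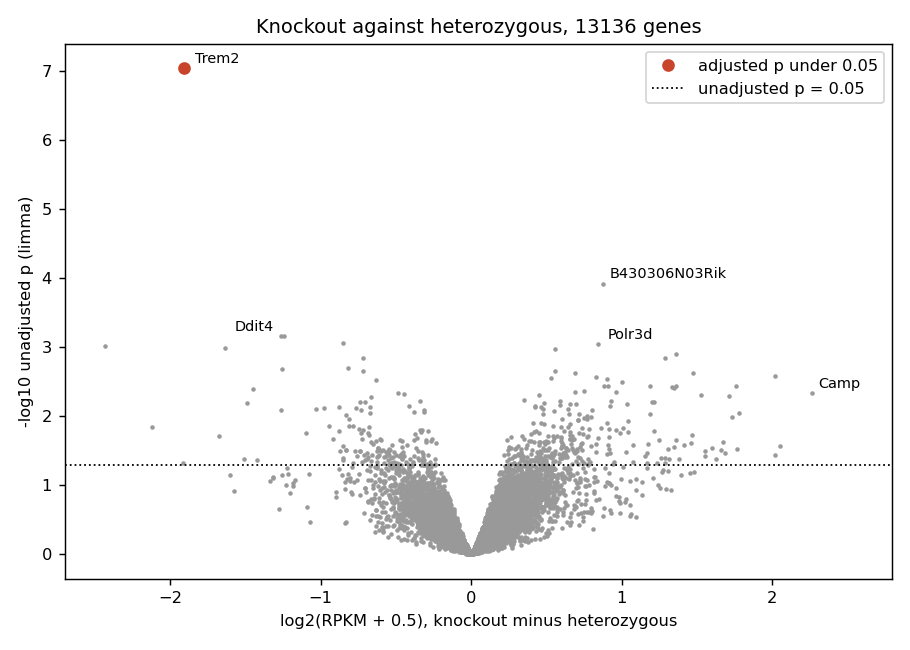
Log2 difference, knockout minus heterozygous (x axis), against the unadjusted p on a -log10 scale (y axis) for the 13136 genes tested. Trem2 stands alone at a log2 difference of -1.91, and every other gene has an adjusted p of 0.79 or more.

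Trem2 lies in a cluster of related receptor genes on chromosome 17, where 12 listed genes other than Trem2 were measured, 8 with a positive and 4 with a negative difference. None passed the adjusted test. The Trem2-like gene B430306N03Rik (ENSMUSG00000043740.15, chr17:48316141-48327024, plus strand), which ends 19.4 kb before Trem2 and is also listed as Treml6, had the smallest unadjusted p of any gene after Trem2. It was at 4.48, 3.59 and 4.81 RPKM in heterozygous libraries and at 8.35, 6.61 and 7.73 RPKM in knockout libraries. All knockout values exceeded all heterozygous ones, and the wild-type libraries, at 3.69 to 6.02 RPKM, lay below the knockout ones as well. The mean was 4.29 ± 0.631 against 7.56 ± 0.883 RPKM (SD, n = 3 each), 176% of the heterozygous level (log2 difference 0.87, standard error 0.15, limma unadjusted p = 0.00012, adjusted p = 0.79). Without library 6 the difference was 0.97, and over 22 settings of the analysis it stayed between 0.75 and 0.97.

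The other receptors of the cluster were low and moved in different directions. Treml4, a receptor of some macrophages and monocytes, was at 0.62, 1.14 and 0.802 RPKM against 2.52, 1.23 and 1.81 RPKM (log2 difference 0.74, 0.30 without library 6). Treml2, at 4.40, 4.25 and 3.31 against 3.90, 1.83 and 1.64 RPKM, overlapped through library 6 (log2 difference -0.62, -1.12 without it). For Treml2 the wild-type libraries, at 6.46 to 9.06 RPKM, were above all heterozygous ones. Treml1, known from platelets, gave 4.15, 2.72 and 3.45 against 6.46, 4.34 and 4.44 RPKM (0.49, and 0.17 without library 6). Trem1, an activating receptor of neutrophils and monocytes, was at 1.32, 1.22 and 0.472 against 5.73, 1.03 and 0.896 RPKM, so that its excess was held by library 6 alone. The neighbour Nfya, a subunit of the CCAAT-binding factor NF-Y, was measured at 134, 88.0 and 89.5 against 139, 121 and 117 RPKM (log2 difference 0.34, unadjusted p = 0.0395). Mdfi, which blocks muscle-lineage transcription factors, was near the filter level at 0.599, 1.34 and 0.467 against 0.2, 0.265 and 0.611 RPKM (-0.72, unadjusted p = 0.0158).

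Within 1 Mb of Trem2 27 other genes were measured, of which 5 (18.5%) had an unadjusted p under 0.05, 3 higher and 2 lower, against 3.27% of genes on other chromosomes. The 5 were B430306N03Rik, Treml4, Nfya, Treml2 and Mdfi. Without library 6 the count was 3 of 26 genes (11.5%), against 3.54% of genes on other chromosomes in that fit. Treml4 and Nfya then no longer had an unadjusted p under 0.05. With all libraries, the count from 1 to 10 Mb was 4 of 116 genes (3.45%). On the rest of chromosome 17 it was 16 of 518 (3.09%). Neighbouring genes are not independent of one another, and the difference between these shares was not tested.

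**Figure D3:**
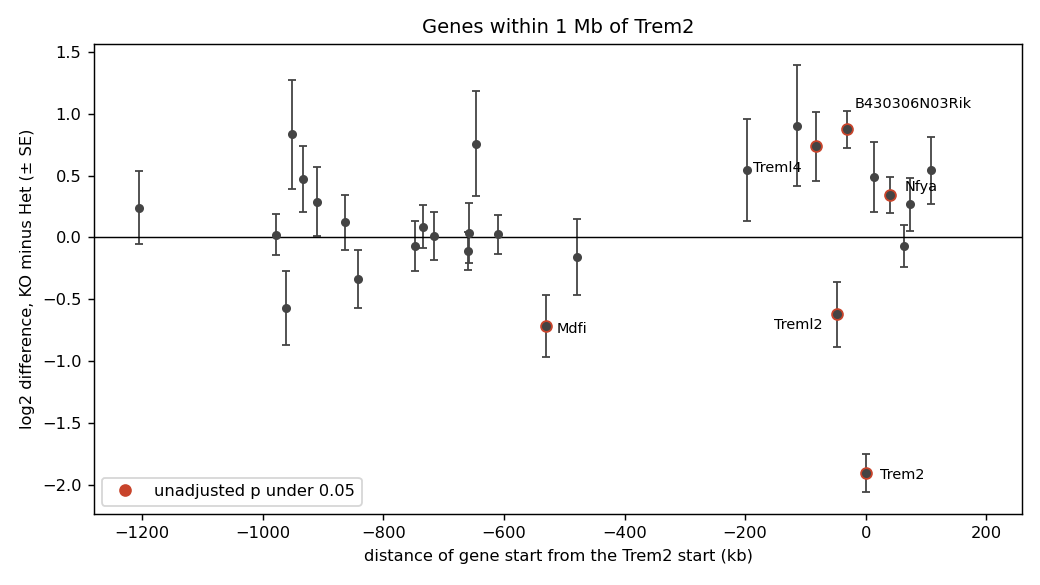
Log2 difference, knockout minus heterozygous, with its standard error (y axis) for Trem2 and the genes within 1 Mb, against the distance of each gene's start from the start of Trem2 in kb (x axis). Trem2 is at -1.91, B430306N03Rik at 0.87, Treml4 at 0.74 and Treml2 at -0.62, while Tfeb (0.02), Oard1 (-0.07) and Foxp4 (-0.16) lie near 0.

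On the signalling side, the adaptor and the kinases downstream of the receptor showed no difference that passed the test. Of 20 DAP12-pathway genes, 16 had a positive and 4 a negative difference, none had an unadjusted p under 0.05, and the median was 0.07 against 0.03 for all genes. Without library 6 the split was again 16 and 4, the median was 0.15 against 0.04 for all genes, and 2 members, the adaptor Sh3bp2 (0.43) and the phosphatase Ptpn6 (0.42), had an unadjusted p under 0.05. In that fit 309 of 12933 genes were higher at that p. Tyrobp, the adaptor, was at 663, 669 and 747 RPKM in heterozygous and 587, 681 and 774 RPKM in knockout libraries (log2 difference -0.02, standard error 0.14). Syk was at 30.1, 35.1 and 32.6 against 26.5, 34.8 and 31.9 RPKM (-0.06). Btk, a kinase of the same pathway, did not overlap, at 23.3, 23 and 22.4 against 24.6, 26.4 and 26.8 RPKM, but the difference of 0.17 had an unadjusted p of 0.109. Vav1 and Itpr2 were the other 2 members whose groups did not overlap, both higher in knockout by 0.05 and 0.14. That makes 3 of 20, where 4.39% of all genes were higher in every knockout library.

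The disease-associated list, the programme known to depend on Trem2 in lesioned brain, had 7 positive and 25 negative differences among 32 members, with a median of -0.09. Without library 6 the split was 15 positive and 17 negative and the median -0.01. Among deeper libraries, which also lack library 6, 10 of 32 were positive, with a median of -0.11. Among male libraries, which lack it too, 10 of 32 were positive, with a median of -0.08. The deeper and the male libraries thus leaned alike. Their values are plain differences of means, whereas the fit without library 6 has a term for sex and all heterozygous libraries. No member passed the adjusted test, and 1 of 32 had an unadjusted p under 0.05, where 3.31% of all genes did. That member was Lpl, lipoprotein lipase, at 7.33, 7.47 and 8.90 RPKM in heterozygous and 4.94, 5.32 and 7.00 RPKM in knockout libraries (log2 difference -0.46, standard error 0.17, unadjusted p = 0.0228, and -0.33 without library 6). Its wild-type values, 7.76 to 9.94 RPKM, sat with the heterozygous ones. In 7 members all knockout values were below all heterozygous values: Lpl, Itgax, Csf1, Cd63, Ctsb, Ctsl and Fth1, where 2.94% of all genes were lower in every knockout library. Csf1, a growth factor for macrophages, was at 61.2, 84.1 and 62.8 against 49.1, 51.4 and 57.1 RPKM (log2 difference -0.34, -0.19 without library 6). Its wild-type range of 49.9 to 103 RPKM overlapped both groups. Cd63, a tetraspanin of late endosomes, was at 20.1, 20.5 and 24.0 against 16.5, 18.4 and 17.2 RPKM (-0.25), and Fth1, the ferritin heavy chain, at 1134, 981 and 945 against 911, 921 and 840 RPKM (-0.16). Apoe, the main apolipoprotein of the brain, varied more within groups than between them, at 117, 192 and 156 against 86.5, 126 and 170 RPKM (log2 difference -0.29, standard error 0.35). Cst7 (0.01) and Clec7a (-0.19) also overlapped.

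The homeostatic list leaned slightly the other way, with 20 positive and 8 negative differences among 28 members and a median of 0.05. The median was 0.10 without library 6, -0.01 without heterozygous library 8 and -0.06 among female libraries, so the sign was not stable. No member had an unadjusted p under 0.05. P2ry12 was at 1878, 1599 and 2108 RPKM in heterozygous and 2274, 2159 and 1786 RPKM in knockout libraries, which overlap. Tmem119, a microglial surface protein, was at 504, 578 and 563 against 430, 635 and 633 RPKM (log2 difference -0.00). The fructose transporter Slc2a5 and the inhibitory receptor Lair1 were the 2 members whose groups did not overlap. Both were higher in knockout, where 4.39% of all genes were higher in every knockout library. Slc2a5 was at 64.3, 57.3 and 66.0 against 73.5, 68.1 and 68.4 RPKM (0.19, unadjusted p = 0.0644).

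**Figure D4:**
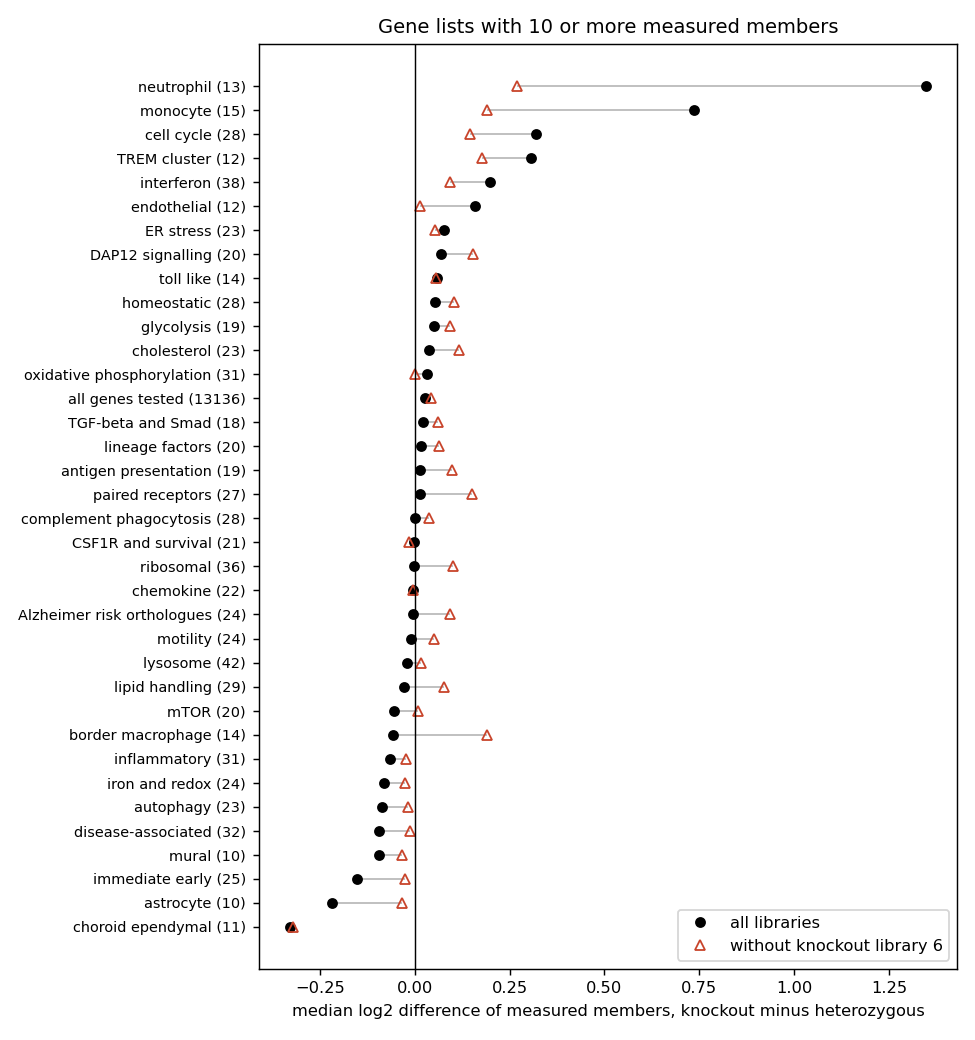
Median log2 difference, knockout minus heterozygous (x axis), of each gene list with at least 10 measured members (y axis), over all libraries and without knockout library 6. The neutrophil list moves from 1.35 to 0.27, the monocyte list from 0.74 to 0.19 and the cell-cycle list from 0.32 to 0.15, while the choroid plexus and ependymal list stays at -0.33 and -0.32.

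In lipid metabolism single genes stood out from lists that were centred near 0. The lipid-handling list had 11 positive and 18 negative differences among 29 members (median -0.03). The split was 18 and 11 and the median 0.08 without library 6. In all libraries 3 had an unadjusted p under 0.05, where 3.31% of all genes did: Dgat1 and Mylip higher and Lpl lower. Dgat1 (ENSMUSG00000022555.12, chr15:76502015-76511953, minus strand), which makes triglyceride from diacylglycerol, was at 8.94, 9.56 and 10.5 RPKM in heterozygous and 14.6, 12.3 and 14.2 RPKM in knockout libraries. The groups did not overlap, and the wild-type libraries at 7.35 to 10.7 RPKM were also below the knockout ones (log2 difference 0.56, standard error 0.14, unadjusted p = 0.00222, 0.60 without library 6). Dgat2, the other enzyme of that step, did not differ by more than its error (0.04). Mylip, the ubiquitin ligase that degrades the LDL receptor, was at 62.7, 72.7 and 61.2 against 69.9, 86.4 and 89.9 RPKM (0.24). Of 23 cholesterol synthesis genes, 12 were positive and 11 negative (median 0.04), and without library 6 the split was 16 and 7. The enzymes Nsdhl, at 7.58, 7.31 and 8.19 against 9.64, 8.90 and 10.2 RPKM, and Msmo1, at 5.07, 5.04 and 5.21 against 6.47, 7.16 and 6.45 RPKM, which act at neighbouring steps of demethylation, were both 0.33 log2 units higher without overlap, and 1 other member was lower without overlap. Over all genes 4.39% were higher and 2.94% lower without overlap. The lysosomal list, 42 hydrolases and membrane proteins, had 16 positive and 26 negative differences with no unadjusted p under 0.05 and a median of -0.02, against 23 positive and 19 negative and a median of 0.02 without library 6. Galc, the galactosylceramidase that digests myelin lipid, was among its 4 members that were lower without overlap (2.94% of all genes were), at 14.1, 12.1 and 12.3 against 10.6, 11.1 and 11.3 RPKM (-0.22).

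Among all well-measured genes, the 12 with the smallest unadjusted p in each direction were listed, leaving out small RNA genes, unnamed clones and sex chromosomes. All had an adjusted p of 0.999 apart from Trem2, and all were separated between the groups except Plac8. After Trem2, the largest difference among the lower ones was that of Ddit4 (ENSMUSG00000020108.4, chr10:59949669-59951834, minus strand), a stress- and glucocorticoid-induced inhibitor of mTORC1. It was at 10.8, 7.94 and 5.85 RPKM in heterozygous and 3.81, 2.52 and 2.32 RPKM in knockout libraries (log2 difference -1.26, standard error 0.27, unadjusted p = 0.000702, -1.44 without library 6). The wild-type libraries, at 3.12 to 5.98 RPKM, were nearer to the knockout ones. Rcan1 (ENSMUSG00000022951.16, chr16:92391953-92470867, minus strand), an inhibitor of the phosphatase calcineurin, was at 67.6, 67.2 and 54.6 against 38.4, 33.1 and 35.7 RPKM (-0.72, standard error 0.17), with wild-type libraries from 34.3 to 61.5 RPKM. Fkbp5 (ENSMUSG00000024222.17, chr17:28399094-28517527, minus strand), a co-chaperone of the glucocorticoid receptor, was at 14.7, 16.4 and 15.3 against 8.84, 10.2 and 7.15 RPKM (-0.74, standard error 0.22). Its wild-type range of 6.71 to 14.2 RPKM lay below all heterozygous libraries.

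Cox7a1, a cytochrome c oxidase subunit of heart and muscle, was at 2.51, 3.72 and 3.02 against 1.13, 0.86 and 0.883 RPKM (-1.25). Maff, a small Maf transcription factor, was at 51.3, 57.4 and 46.9 against 36.6, 35.9 and 40.3 RPKM (-0.45). The MAP kinase phosphatase Dusp2 was at 14.5, 12.8 and 16.0 against 10.8, 9.66 and 9.45 RPKM (-0.49), with wild-type libraries at 13.3 to 17 RPKM beside the heterozygous ones. The growth factor Igf2, which choroid plexus and meninges express strongly, was at 24.8, 43.7 and 38.2 against 22.4, 21.4 and 22.2 RPKM (-0.67), lower as the choroid plexus markers were. The part of those cells in the Igf2 difference was not tested. Capn15 (-0.72), Mex3a (-0.71), Dnajb13 (-0.41) and Metap1d (-0.34) completed the lower group.

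Among the higher genes, Polr3d, a subunit of RNA polymerase III, was at 2.11, 2 and 2.17 RPKM in heterozygous and 4.64, 2.89 and 4.33 RPKM in knockout libraries (0.85, standard error 0.19, unadjusted p = 0.000911). Its wild-type libraries, at 2.62 to 3.66 RPKM, lay above all heterozygous ones and overlapped the knockout ones. The histone chaperone Asf1a had nearly equal knockout values, at 10.3, 7.56 and 8.45 against 12.8, 12.7 and 12.7 RPKM (0.56, unadjusted p = 0.00106), above a wild-type range of 9.83 to 10.7 RPKM. Fbxo5, an inhibitor of the anaphase-promoting complex, was at 1.47, 0.471 and 1.24 against 4.38, 3.05 and 1.84 RPKM (1.36). Pcgf1, a subunit of Polycomb repressive complex 1, was at 1.49, 1.88 and 2.65 against 3.20, 5.70 and 5.58 RPKM (1.00), but its wild-type libraries, at 2.59 to 4.59 RPKM, bridged the groups. Rmdn1 was at 6.66, 7.14 and 9.19 against 11.1, 11.3 and 10.7 RPKM (0.53). The histone H3 genes Hist1h3d (0.83, 0.51 without library 6) and Hist1h3e (0.90, 0.84 without it) have near-identical copies between which reads could have been split, so their values are uncertain. For Hist1h3d the wild-type libraries, at 5.90 to 9.00 RPKM, lay above all heterozygous ones and overlapped the knockout ones. For Hist1h3e they overlapped both groups, at 1.15 to 1.87 RPKM. Camp, a neutrophil granule peptide, was at 3.97, 3.03 and 2.29 against 59.9, 5.91 and 6.98 RPKM (2.26, and 0.84 without library 6). Mmp9 (1.19, 0.73 without library 6), the monocyte gene Plac8 (1.34, 0.89 without it) and the interferon-induced Samd9l (0.69, 0.52 without it) likewise had their highest value in that library.

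**Figure D5:**
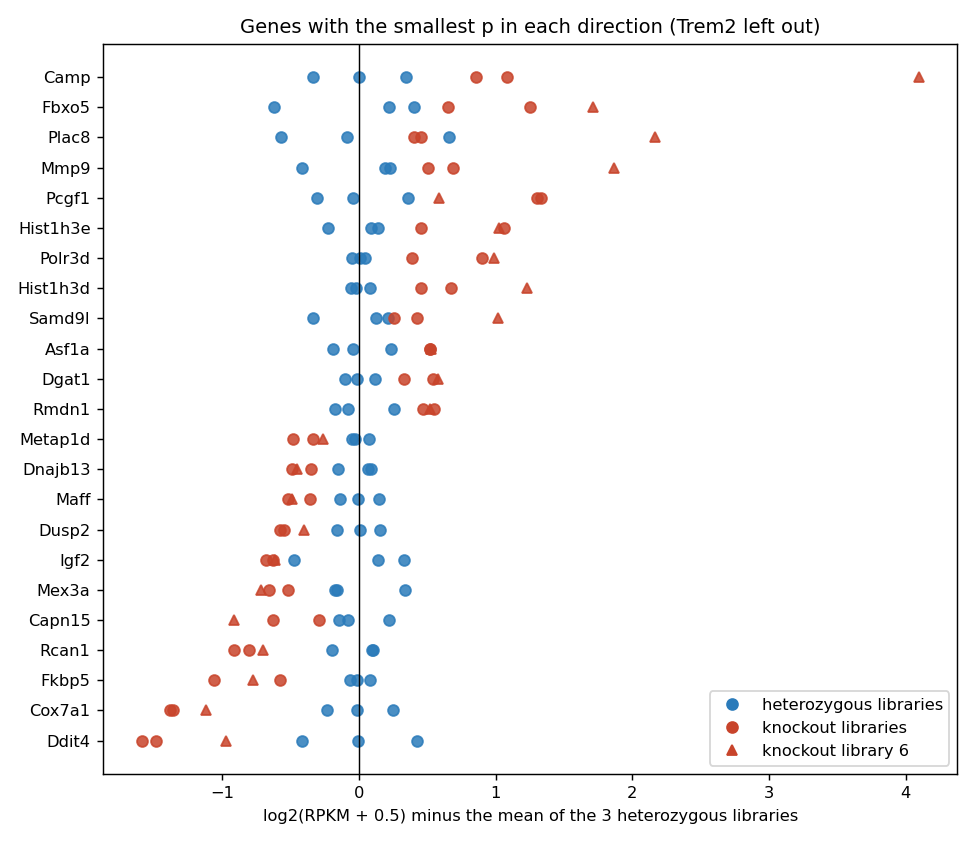
Log2(RPKM + 0.5) minus the heterozygous mean (x axis) in each heterozygous and knockout library for 23 genes (y axis), the 12 with the smallest unadjusted p in each direction other than Trem2; knockout library 6 is the triangle. For Camp the triangle lies far to the right of the other knockout points, while for Asf1a and Dgat1 the 3 knockout points lie close together.

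Lists whose lean moved with library 6 or between depth classes are given with those values. Interferon-stimulated genes had 33 positive and 5 negative differences among 38, 6 of them at an unadjusted p under 0.05, and a median of 0.20, where 57.2% of all genes were positive and 2.16% were higher at that p. Without library 6 the median was 0.09 and none of the 38 had an unadjusted p under 0.05. Zbp1, a sensor of Z-form nucleic acid, was at 1.90, 1.36 and 1.62 RPKM against 3.71, 2.15 and 2.44 RPKM (0.74), with a wild-type range of 1.55 to 3.79 RPKM that covered both groups. Among deeper libraries (heterozygous 11 against knockout 9 and 12) the list's median was -0.14, and among shallower ones (heterozygous 5 and 8 against knockout 6) it was 0.48. Cell-cycle genes had 26 positive and 2 negative differences among 28, 4 of them at an unadjusted p under 0.05. Their median was 0.32, and 0.15 without library 6, when 22 of 27 measured members were positive and none had an unadjusted p under 0.05. The shares over all genes were again 57.2% positive and 2.16% higher at that p. Top2a, the topoisomerase of dividing cells, was at 4.43, 2.09 and 2.59 against 9.42, 3.67 and 3.26 RPKM (0.87, 0.44 without library 6), and Mki67 at 6.31, 5.55 and 5.03 against 15.2, 6.09 and 6.05 RPKM (0.67, 0.18 without it). The neutrophil markers above were highest in the same library, and their part in these lists was not tested.

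Immediate early genes, which respond within minutes to stimulation and to tissue dissociation, had 4 positive and 21 negative differences among 25 (median -0.15, -0.03 without library 6). The sign of the median differed between depth classes, at 0.23 among deeper and -0.56 among shallower libraries, with too few libraries in each for a test. Those classes also differ in the balance of sexes and in holding library 6. Dusp1 was the member with an unadjusted p under 0.05, at 1821, 2422 and 1546 RPKM in heterozygous and 1303, 1717 and 1756 RPKM in knockout libraries (-0.38). Inflammatory genes had 9 positive and 22 negative differences among 31 (median -0.07). Without library 6 they had 15 and 16 (median -0.02), and the median was 0.04 without heterozygous library 8, 0.06 among deeper and -0.28 among shallower libraries. The chemokine Cxcl2 was the inflammatory gene without overlap, at 50.4, 75.6 and 50.6 against 30.6, 47.7 and 34.1 RPKM (-0.68, unadjusted p = 0.0177). In the mTOR list 7 of 20 were positive and 13 negative (median -0.06), and 11 and 9 (median 0.01) without library 6. Its members below 0.05 in all libraries were Ddit4 and the lysosomal GTPase Rragd (-0.45), both lower. In the autophagy list, 8 positive and 15 negative among 23 (9 and 14 without library 6), the member below 0.05 was Gabarapl1, at 20.9, 23.5 and 22.0 against 14.8, 19.3 and 17.4 RPKM (-0.38, -0.24 without library 6). Over all genes 1.15% were lower at an unadjusted p under 0.05 and 2.94% were lower without overlap.

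Markers of cells other than microglia were described by the same counts. All 13 measured neutrophil markers were positive, 8 at an unadjusted p under 0.05, where 57.2% of all genes were positive and 2.16% were higher at that p. Without library 6 the split was 9 positive and 4 negative, and 1 marker had an unadjusted p under 0.05. Among deeper libraries (heterozygous 11 against knockout 9 and 12) all 13 were positive, with a median of 1.31. Among male libraries (heterozygous 8 against knockout 9 and 12) 8 were positive, with a median of 0.15. The excess without library 6 thus varied with the heterozygous library compared. Of 15 monocyte markers 12 were positive (median 0.74, 0.19 without library 6), while their summed level was 197, 296 and 210 against 375, 212 and 259 RPKM (exact permutation p = 0.5). Of 11 choroid plexus and ependymal genes 9 were negative, and the median of -0.33 was -0.03 without heterozygous library 8. Ttr, the transthyretin that choroid plexus secretes, was at 1033, 1691 and 1330 against 947, 1029 and 961 RPKM (-0.40), and the choroid plexus transcription factor Otx2 at 8.08, 9.07 and 7.06 against 6.75, 5.52 and 3.60 RPKM (-0.54, unadjusted p = 0.0369). Border-associated macrophage markers had 3 positive and 11 negative differences among 14, with a median of -0.06 that was 0.19 without library 6. Of 12 endothelial genes 11 were positive (median 0.16, 0.01 without library 6), and of 10 astrocyte genes 8 were negative (median -0.22, -0.03 without it). The astrocyte median was -0.45 without heterozygous library 5 and 0.07 without 11. Among deeper and shallower libraries it was -0.68 and -0.13. The medians in those 2 depth classes were -0.14 and 0.47 for endothelial genes, and 0.45 and -0.69 for border-associated macrophage markers.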

How the data were processed

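Microglial RNA of 10 libraries was sequenced on a HiSeq4000 instrument. The authors deposited 1 table of RPKM values per library, 24060 gene names each, and the submitters' processing notes name STAR, HTSeq, edgeR, limma and the mm10 build without versions or order. No label or header states the counting rules or strandedness. RPKM values fell on whole multiples of 1 read for 100% of genes (tolerance 0.0005 reads or a relative 3e-07), which gave the depths. Names turned into dates (27) were not used. Of 19983 genes, 19000 matched GENCODE M21 by symbol, 736 by synonym and 247 not at all.

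The test was limma-trend (limma 3.58.1, R 4.3.3) on log2(RPKM + 0.5) with genotype and sex as terms over 10 libraries, two-sided, Benjamini-Hochberg over 13136 genes, threshold 0.05. It was tested on simulated data. Marker sums were tested by exact permutation (scipy 1.17.1). Named genes were Trem2 and its cluster, the 12 genes with the smallest p in each direction at a mean of 1 RPKM or more, and of each list the 3 most abundant members and the 2 with the smallest p. Other listed genes named for separation or known role were chosen after their values were seen. The 45 lists (28 processes, 17 cell types) and the comparison were chosen with earlier results of these data known. Alternatives changed the libraries, covariates, pseudocount, filter, scaling, weights and model. Depth limits precision through counting error, which the model's spread includes.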

Additional observations from a re-analysis of the deposited data

How the results depend on the processing

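Trem2 was called lower in every one of the 21 other settings, with a log2 difference between -2.08 and -1.82 and an adjusted p between 0.000179 and 0.0215 (limma). Leaving out 1 library at a time gave -2.08 to -1.83. No gene was called higher in any setting except with log2 depth as a covariate, where 1 gene was called, Camp, at a log2 difference of 2.95 (adjusted p = 0.0268, and up to 1.00 over the other settings); its value without knockout library 6 was 0.84. Genes at an unadjusted p under 0.05 numbered 435, against 741 with the 6 libraries alone, 800 without a filter and 670 with sample quality weights, and 376 to 638 with 1 library left out. TMM and median-ratio scaling moved the median of all genes from 0.03 to -0.00. Medians of the disease-associated (-0.09 to -0.01), DAP12 (0.07 to 0.15), neutrophil (1.35 to 0.27) and monocyte (0.74 to 0.19) lists moved by more than the spread between libraries without knockout library 6, and that of the choroid plexus list (-0.33 to -0.03) without heterozygous library 8; the homeostatic median was -0.01 without that library and with the depth covariate. The cause of these shifts was not tested. The planned edgeR and DESeq2 fits on recovered reads were not run, and limma-voom was the model of those reads that was. No paired analysis was run, since the labels name no pairs. Whether the order of the library numbers marks sets of libraries handled together was not tested. With 3 libraries a group, the median standard error of 0.20 log2 units limits what could be detected, and exact permutation cannot go below 0.1.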

Other observations

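Groups picked after the values of Ddit4, Fkbp5 and the histone genes had been seen are given as values, with no test. Of 15 genes known to respond to glucocorticoids, 14 had a negative difference, knockout minus heterozygous, with a median of -0.32. Of these, 4 had an unadjusted p under 0.05 by limma: Fkbp5, Ddit4, Dusp1 and Mt1. Over all genes 42.8% were negative and 1.15% were lower at that p, and Fkbp5 and Ddit4, which prompted the group, are among the 4. Klf9, a transcription factor induced by the hormone, ranged from 5.54 to 7.08 RPKM in heterozygous and from 3.45 to 5.97 RPKM in knockout libraries (log2 difference -0.47). Sgk1, a hormone-induced kinase, ranged from 303 to 441 against 294 to 332 RPKM (-0.26), and Tsc22d3, which encodes the leucine zipper protein GILZ, from 42.1 to 63.0 against 45.7 to 49.5 RPKM (-0.26). Wild-type libraries spanned 338 to 426 RPKM for Sgk1 and 48.2 to 62.1 RPKM for Tsc22d3. Cdo1 was the member with a positive difference (0.46). The smallest adjusted p among the 15 was 0.999. Without knockout library 6, Fkbp5 (-0.65) and Ddit4 (-1.44) kept an unadjusted p under 0.05 by limma, whereas Dusp1 (-0.33) and Mt1 (-0.20) did not. Klf9 (-0.79) then had an unadjusted p under 0.05 too. Per1 moved from -0.43 to -0.08 and Mt2 from -0.32 to -0.01. Among the 14 negative members, Ddit4, Klf9 and Tsc22d3 alone became more negative without that library.

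Of 26 measured genes of histone cluster 1, 21 had a positive difference, with a median of 0.29, and 4 had an unadjusted p under 0.05: Hist1h3d, Hist1h3e, Hist1h4a and Hist1h4d. Over all genes 57.2% were positive and 2.16% were higher at that p, and Hist1h3d and Hist1h3e, which prompted the group, are among the 4. Hist1h4a passed the filter only through its knockout values, so its p lends no support. It rested on 2, 2 and 4 recovered reads in heterozygous libraries 5, 8 and 11. Hist1h4d ranged from 23.1 to 30.3 RPKM in heterozygous and from 29.2 to 49.3 RPKM in knockout libraries (0.46, and 0.61 without knockout library 6). The abundant Hist1h2bc, whose transcripts can be polyadenylated, ranged from 72.3 to 78.3 against 76.3 to 90.2 RPKM (0.09). These genes are near-identical in sequence and short, so reads could have been split between them. Other subunits of RNA polymerase III had smaller differences than Polr3d. Of 10 measured subunit genes 7 were positive and 3 negative, with a median of 0.13.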
